A study of Mus musculus with 12 samples.

Results

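The interaction between renal ischemia-reperfusion injury and hypoxic preconditioning is the difference between 2 injury effects. The effect of injury in preconditioned mice (preconditioned injured minus preconditioned sham kidneys) was compared with its effect in normoxic mice (normoxic injured minus normoxic sham kidneys). All 12 libraries of the series enter it, and every gene with an FPKM of at least 1 (fragments scaled by gene length and library depth) in at least 3 libraries was included, 12357 of the 25553 genes in the table. The mice were wild type (WT), and RNA came from kidney tissue. The 4 groups held 3 libraries each, called kidneys below: normoxic sham (NS1 to NS3), normoxic with injury (NR1 to NR3), preconditioned sham (HS1 to HS3), and preconditioned with injury (HR1 to HR3). For injury (renal ischemia-reperfusion injury, RIRI), both renal pedicles were clamped during 45 min and the kidneys then reperfused during 12 h. Preconditioning meant breathing 8% oxygen in a chamber on 3 successive days, with sessions that lasted 2, 4 and finally 8 h. Strain, sex and age are not given in the labels, and all libraries carry 1 batch number. The labels number the libraries within a group and do not say how the replicates were taken, so p-values measure the spread between these samples.

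After ischemia and reperfusion, kidney tubule cells switch on a stress and repair program (keratins, AP-1 factors, lipocalin 2, kidney injury molecule 1) and lower the transporters and enzymes that define each nephron segment. Brief exposures to low oxygen before the insult are known to change how tissues bear it, through hypoxia-inducible factors among other routes. An interaction below 0 marks a gene that rose less, or fell more, upon injury in preconditioned mice, and one above 0 a gene that fell less or rose more. The study's title places the IL-17A, IL-17RA and TRAF6 signalling axis, a cytokine route to NF-kB, at its centre.

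The libraries held 33080951 to 35673780 recovered reads each. The defining markers of kidney were present in all 12 libraries. The proximal tubule transporter Slc34a1 ranged from 594 to 2153 FPKM, the thick ascending limb protein Umod from 1059 to 1732 and the collecting duct channel Aqp2 from 127 to 444. Markers of neighbouring adrenal gland and of lymphocytes were at or near 0, with Cyp11a1 at most 0.0714 FPKM and Cd3e at most 0.488. In bulk tissue, fewer cells of a type and less RNA per cell cannot be told apart. The summed level of 11 red blood cell genes was 794 to 1058 FPKM in normoxic sham, 564 to 1036 in normoxic injured, 1756 to 2145 in preconditioned sham and 567 to 2362 in preconditioned injured kidneys, and the part of blood content in the results was not tested.

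Injury effects had the same sign in both arms in all but 14.8% of the genes and were smaller after preconditioning. Over the 12357 genes, the median size of the injury effect was 0.49 on the log2(FPKM + 1) scale in normoxic and 0.29 in preconditioned mice. The correlation of the 2 effects across genes, which are not independent replicates and of which no library enters both, was 0.892. In limma, with p adjusted over all genes, 2953 genes were called for the interaction at 0.05 (23.9% of those tested). Of these, 1560 (12.6%) were lower and 1393 (11.3%) higher. Among the tested genes, 266 reached the level filter of 1 FPKM in 3 libraries only through the normoxic injured kidneys. For them a lower value was largely set by the filter, and 96 were called lower, against 1464 of the other 12091. Another 147 genes passed only through the preconditioned injured kidneys. Sizes were mostly moderate: 253 of the lower and 325 of the higher calls reached a log2 interaction of 1, and no gene was called below 0.24 in size. The median standard error (SE) of the interaction was 0.148.

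Most called genes kept the direction of injury and changed its size. Of the 1560 lower calls, 1426 (91.4%) had a smaller rise in preconditioned mice, 126 (8.1%) had effects of opposite sign and 8 had a larger fall. Of the 1393 higher calls, 1088 (78.1%) had a smaller fall, 280 (20.1%) had opposite signs and 25 had a larger rise. Over all genes tested, 39.0% had a smaller rise, 28.7% a smaller fall and 14.8% opposite signs. The interaction shares its libraries with each injury effect, so these shares describe the calls and are not a test. The patterns use the signs of the fitted effects whatever their SE, so that some rest on an effect near 0 in 1 arm. Injury itself was called in normoxic mice only for 400 of the lower and 511 of the higher calls. The median lower call had an injury effect of 1.06 in normoxic and 0.45 in preconditioned mice, and the median higher call -1.0 and -0.35. Injured kidneys carried most of the difference. The sham difference was larger in size than the difference between injured kidneys in 8.8% of lower calls and 6.8% of higher calls, against 26.4% of all genes tested. Between the sham groups, 52 genes (0.421%) were called. The fit used 1 spread per gene for all 4 groups. The median SD of log2 values was 0.0825 in normoxic sham and 0.0845 in preconditioned sham kidneys, but 0.146 and 0.120 in the injured groups. The sham count can therefore be held down by the spread of injured kidneys, and does not show that the other genes were unchanged.

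**Figure D1:**
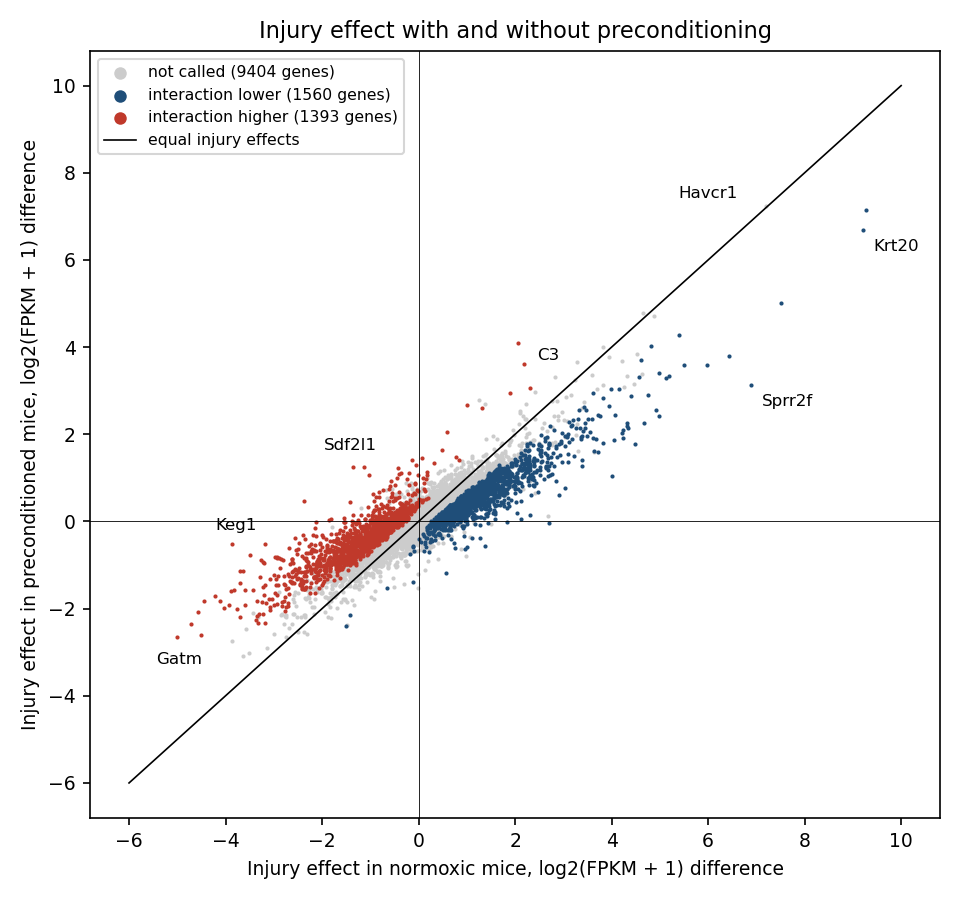
Injury effect of each of the 12357 genes in normoxic mice (x axis) and in preconditioned mice (y axis), both as log2(FPKM + 1) differences over 3 against 3 libraries. Genes called lower (blue, 1560) lie below the line of equal effects and most of them (1426) rose less after preconditioning, genes called higher (red, 1393) lie above it and most of them (1088) fell less, and Havcr1 lies on the line.

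The genes with the most negative interaction values included stress genes of injured epithelium that were low in both sham groups. Sprr2f (chr3:92365187-92366442 in GRCm38.p6), a small proline-rich protein of stressed epithelia with close paralogs, was at 101, 119 and 138 FPKM in the 3 normoxic injured kidneys and at 16.6, 4.01 and 8.03 in the 3 preconditioned ones. It was at 0 in the normoxic sham kidneys and at most 0.197 in the preconditioned ones, and its interaction was -3.77 ± 0.46 (SE, adjusted p = 0.000634). The injured groups did not overlap. Hmga1 (chr17:27556574-27563672), an architectural chromatin protein of proliferating cells, was at 104, 93.4 and 93.7 FPKM in normoxic and 23.1, 15.96 and 23.8 in preconditioned injured kidneys. Its sham values were 2.66 to 3.10 and 3.15 to 4.00, and its interaction of -2.42 ± 0.19 (SE, adjusted p = 7.56e-05) had the smallest adjusted p among the 12 lowest named genes. Krt20, a keratin of injured tubules, was at 561, 994 and 598 FPKM in normoxic and 159.9, 74.8 and 174 in preconditioned injured kidneys, against at most 0.402 in any sham kidney. Its interaction was -2.53 ± 0.41 (SE, adjusted p = 0.00202).

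Promoters of 2 genes, the lowest and the highest by interaction value among those named, are printed to show what stands at their start sites (RefSeq, GRCm38.p6, 250 bases before to 50 bases after the start). Capitals mark motif letters that were searched for on both strands: the AP-1 site TGANTCA, the CRE TGACGTCA, the HNF4 element CAAAGTCCA and the HIF core ACGTG.
Sprr2f, chr3:92364937-92365236, plus strand: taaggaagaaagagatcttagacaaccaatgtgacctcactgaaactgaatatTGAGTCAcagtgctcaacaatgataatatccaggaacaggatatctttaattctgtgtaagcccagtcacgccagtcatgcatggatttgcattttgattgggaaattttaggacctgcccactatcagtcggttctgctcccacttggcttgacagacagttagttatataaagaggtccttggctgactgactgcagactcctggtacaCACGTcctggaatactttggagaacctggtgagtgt
Keg1, chr19:12695540-12695839, plus strand: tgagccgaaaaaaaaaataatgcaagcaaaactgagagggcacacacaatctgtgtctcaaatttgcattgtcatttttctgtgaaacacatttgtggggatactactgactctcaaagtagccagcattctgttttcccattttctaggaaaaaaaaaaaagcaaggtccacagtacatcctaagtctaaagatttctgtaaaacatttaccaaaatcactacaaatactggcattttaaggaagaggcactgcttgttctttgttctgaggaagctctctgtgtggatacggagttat
The Sprr2f window holds an AP-1 match from base 54 and a HIF core, read on the other strand, from base 265. The Keg1 window holds none of the 4 motifs. A match is a description of letters, not evidence of binding. Among the 9778 tested genes with a promoter entry, the AP-1 letters stood in 6.30% of lower calls, 5.26% of higher calls and 5.07% of all tested genes, and in 7.93% of all promoters in the table. The HIF core stood in 27.1%, 25.1%, 25.6% and 19.7% of the same sets. The CRE stood in 3.27%, 1.81%, 3.03% and 1.88%, and the HNF4 element in 0.327%, 0.907%, 0.430% and 0.477%.

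The other genes of this group included Pdk4, Plin2, Akap12, Vgf and Sphk1. Pdk4, the kinase that shuts off pyruvate dehydrogenase, was at 71.5, 344 and 91.2 FPKM in normoxic and 16.2, 5.04 and 23.8 in preconditioned injured kidneys, with an interaction of -2.97 ± 0.79 (SE, adjusted p = 0.0202). Plin2, a coat protein of lipid droplets, was at 861, 1262 and 1427 (NR) against 339, 61.1 and 356 (HR), and its interaction was -2.50 ± 0.72 (SE, adjusted p = 0.0273). For both genes 1 kidney stood apart: NR2 for Pdk4 and HR2 for Plin2. Akap12, a scaffold of protein kinase A, was at 119, 181 and 125 (NR) against 35.8, 12.5 and 29.3 (HR) FPKM, with an interaction of -2.57 ± 0.41 (SE, adjusted p = 0.00201). Vgf, a secreted neuropeptide precursor, was at 0 in all 6 sham kidneys, at 25.4, 14.3 and 26.7 in normoxic injured and at 3.93, 1.43 and 2.33 in preconditioned injured kidneys (-2.71 ± 0.35, adjusted p = 0.000715). Sphk1, a kinase that makes sphingosine 1-phosphate, had an interaction of -2.34 (adjusted p = 0.00295), with 28.8 to 70.8 FPKM in normoxic and 5.14 to 10.4 in preconditioned injured kidneys. In each of these 5 genes the injured groups did not overlap. They were chosen by their interaction values, and over all genes tested 19.9% had every preconditioned injured kidney below every normoxic one. The call of Plin2 was lost without any 1 library other than HR1, HR2, HR3, NR1 or NS2, leaving out 1 library at a time. A call was lost without the level filter for Pdk4 and Plin2.

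For genes that are near 0 in sham kidneys, a log2 interaction depends on the scale. With limma voom on recovered reads, the interaction was -4.97 for Sprr2f (adjusted p = 0.06), -3.40 for Krt20 (0.171), -3.23 for Vgf (0.297), -2.52 for Fosl1 (0.381) and -2.18 for Dusp5 (0.146), so that none of these 5 was called there. Of the 177 lower calls with both sham means under 1 FPKM, voom called 78 (44.1%). Of the other 1383 lower calls it called 1261 (91.2%). Hmga1, expressed in sham kidneys, kept its call (adjusted p = 0.000131), as did Akap12 (0.00331).

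**Figure D2:**
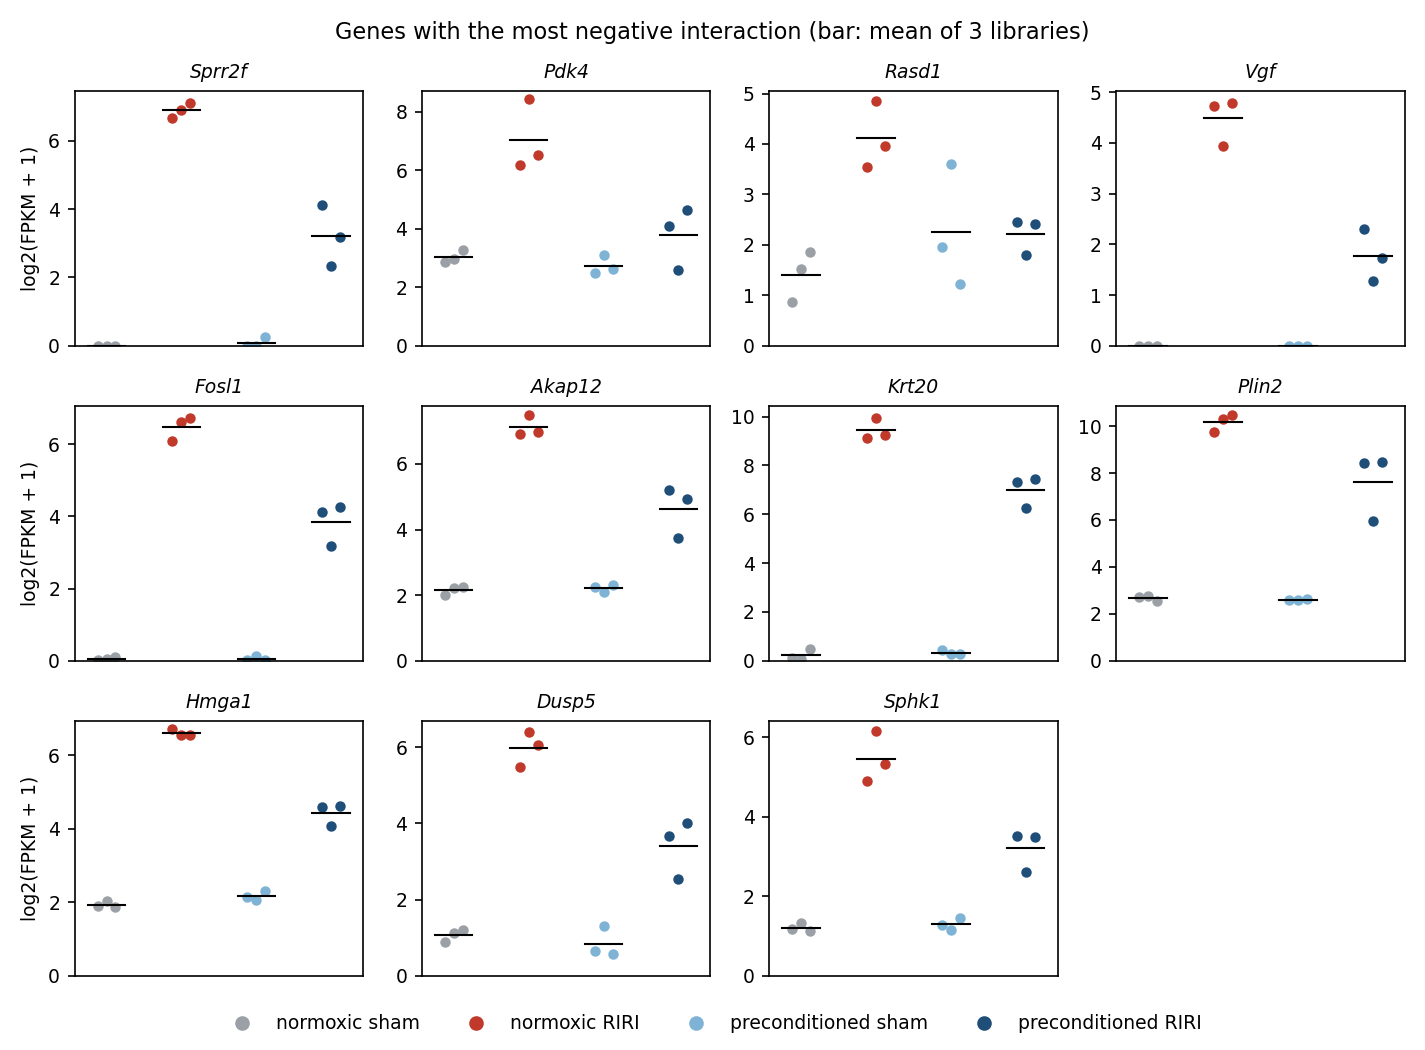
Level as log2(FPKM + 1) of 11 of the 12 genes with the most negative interaction values in the 12 kidneys, coloured by group, with a point for each kidney and a bar at the mean of 3. In Sprr2f and Hmga1 the 3 preconditioned injured kidneys lie below the 3 normoxic injured ones and above the sham kidneys.

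Markers of damaged tubules showed the lower interaction as a group. Of 26 tested members, 20 were called lower and 0 higher, against 12.6% and 11.3% of all genes. Their median injury effect was 3.71 in normoxic and 2.64 in preconditioned mice, with a median interaction of -1.09 (-0.00452 over all genes tested). The count was 17 to 20 when any 1 library was left out, and 14 with voom. Krt8, a keratin of simple epithelia, was at 911 to 983 FPKM in normoxic and 329.6 to 476 in preconditioned injured kidneys (-1.30 ± 0.17, adjusted p = 0.000737). Lgals3, the lectin galectin-3, was at 458 to 609 (NR) against 252 to 321 (HR) (-1.25 ± 0.20, adjusted p = 0.00198). Lcn2, the urinary injury marker lipocalin 2, was at 1557, 3009 and 2419 FPKM in normoxic and 775, 526 and 890.3 in preconditioned injured kidneys. Its interaction was -2.11 ± 0.38 (SE, adjusted p = 0.00305), and its injury effect was still 7.15 ± 0.27 after preconditioning. These intermediate levels lay far above their own sham kidneys at 3.16 to 5.22.

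The most widely used marker of the same cells was not called. Havcr1, which encodes kidney injury molecule 1, was at 216, 106 and 470.0 FPKM in normoxic and 673, 127 and 295 in preconditioned injured kidneys. The groups overlapped, and the interaction was 0.03 ± 0.77 (95% interval -1.66 to 1.72). That interval is wide and does not show equal injury. Among strongly injury-raised genes not called, the glutathione transferase Gsta1 had an interaction of -0.16 (-1.29 to 0.97), the fibrinogen chain Fgg 0.14 (-3.38 to 3.66) and the chemokine Cxcl1 -0.69 (-2.10 to 0.73). These values also depended on the scale. With voom the interaction was -2.06 for Gsta1 (adjusted p = 0.578), outside the interval above, and -0.51 for Havcr1 (0.874). It was 0.365 for Fgg and -0.427 for Cxcl1 with voom. Among injury-lowered genes not called, the growth factor Egf had 0.57 (-0.43 to 1.56), the calcium-binding Pvalb 0.09 (-0.56 to 0.75), the aldo-keto reductase Akr1c21 0.24 (-0.65 to 1.13) and the carbonic anhydrase Car14 -0.04 (-0.96 to 0.88). Egf was at 13.3 to 44.4 FPKM in normoxic and 40.8 to 50.7 in preconditioned injured kidneys, against 346 to 389 in normoxic sham.

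Immediate early transcription factors held lower calls too. Of 11 tested AP-1 subunits and partners, 5 were called lower (45.5%, against 12.6% of all genes), 0 higher, and all 11 had interaction values below 0. Fosl1 was at 67.6, 97.5 and 106 FPKM in normoxic and 16.5, 7.99 and 18.3 in preconditioned injured kidneys (-2.63 ± 0.34, adjusted p = 0.000768), and Atf3 at 16.2 to 23.4 (NR) against 7.05 to 8.45 (HR) (-1.23 ± 0.25, adjusted p = 0.00571). With voom or with a pseudocount of 0.1 the list's count was 3. Of 17 Krüppel-like and early growth factors, 5 were lower and 1 higher (35.3% called, against 23.9% of all genes tested). Klf6 was at 55.9, 119.6 and 80.2 (NR) against 32.8, 19.5 and 26.2 (HR) FPKM (-1.78 ± 0.32, adjusted p = 0.00336), and Myc at 54.5 to 60.8 (NR) against 22.9 to 32.6 (HR) (-1.12 ± 0.31, adjusted p = 0.0249). The lower count was 3 without HR2. The higher call, Klf15, was lost without any of 10 libraries (all but HR1 and NR1). Genes that feed back on ERK, the growth factor kinase, held 3 lower calls of 15 (20.0%, against 12.6% of all genes), Spred3, Dusp5 and Dusp7. The phosphatase Dusp5 was at 44.0, 84.2 and 66.2 FPKM in normoxic and 11.7, 4.78 and 15.1 in preconditioned injured kidneys (-2.36 ± 0.49, adjusted p = 0.00618). The ERK feedback count was 5 without HR1 or HS3, and 6 without NR1 or NS3. The call was lost for Myc without HR2 or HS3 and for Dusp7 without NS1, leaving out 1 library at a time. Calls also ended with voom for Atf3, with a pseudocount of 0.1 for Atf3 and Myc, without the level filter for Myc and Dusp7, and with library weights for Myc.

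The genes of the IL-17 axis named in the title were not called. Il17ra, the receptor subunit, was at 10.7, 8.99 and 7.15 FPKM in normoxic sham, 10.8, 10.4 and 10.1 in normoxic injured, 9.40, 8.80 and 7.65 in preconditioned sham and 7.86, 7.68 and 8.14 in preconditioned injured kidneys. Its interaction was -0.32 ± 0.16 (SE, adjusted p = 0.164), with a 95% interval of -0.68 to 0.03. Traf6, the ubiquitin ligase below the receptor, was at 5.51 to 7.28 FPKM in normoxic and 5.50 to 6.08 in preconditioned injured kidneys (-0.12 ± 0.14, 95% interval -0.42 to 0.17, adjusted p = 0.538). Il17a itself was not analysed here. Of 25 tested receptors, ligands and adaptors, 1 was called lower and 2 higher, a share of 12.0% against 23.9% of all genes tested. Rela, the NF-kB subunit, was at 30.6 to 43.0 FPKM in normoxic and 18.5 to 24.3 in preconditioned injured kidneys (-0.70 ± 0.18, adjusted p = 0.0185). The receptor Il17rb was higher (1.05, adjusted p = 0.0453). The higher count was 0 without HS2, NR3 or NS1, and 1 without HR1, HR2, HS1, HS3, NR2, NS2 or NS3. The lower count was 2 without HR1, NR2 or NS3, and 3 without NR1. The call of Il17rb was lost without any 1 library other than HR3, NR1 or NS2, leaving out 1 library at a time. The call ended with a pseudocount of 0.1 for Il17rb, and without the level filter for Il17rb.

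Of 25 tested targets of IL-17 and NF-kB, 4 were called lower and 0 higher, a share of 16% against 12.6% of all genes. Of the tested targets, 7 reached the level filter only through the normoxic injured kidneys, 2 of the lower calls (Mmp9 and Mmp3) among them, so that a lower value was largely set by the filter. The lower calls were Mmp9, Lcn2, Birc3 and Mmp3. Mmp9, a matrix protease of neutrophils, was at 2.19, 2.41 and 2.44 FPKM in normoxic and 0.742, 0.417 and 0.641 in preconditioned injured kidneys (-1.07 ± 0.14, adjusted p = 0.000866). Birc3, an inhibitor of apoptosis, was at 7.18 to 10.4 (NR) against 4.22 to 6.63 (HR) (-0.87 ± 0.21, adjusted p = 0.013). The count was 9 without HR1 or NR1. Of 20 chemokines, 3 were lower (Ccl6, Cxcl14 and Cxcl3) and 2 higher (Ccl28 and Cx3cl1). In either direction, the share of chemokines called was near the 23.9% of all genes tested. Of the 3 lower chemokine calls, 1 was past the filter only through the normoxic injured kidneys. The lower chemokine count was 0 without HS1, HS3, NR3 or NS1, and 1 without HR2, HR3, HS2, NS2 or NS3. Of 25 acute phase and STAT3 genes, 6 were lower (24.0%, 2 of them past the filter only through the normoxic injured kidneys, and 1 lower with voom), among them Stat3 (-0.66, adjusted p = 0.0255) and its inhibitor Socs3 (-0.94, 0.0264). That count was 1 without HR2, 2 without HS3, NR2, NR3, NS1 or NS3, and 3 without HS2. The call was lost for Mmp3 without HR2 or NS1, for Ccl6 without HR2, HS1, HS3, NR3, NS1 or NS2, for Cxcl14 without any 1 library other than HR1, HR2, NR1, NR2 or NS2, for Stat3 without HR2, HS1, HS2, NR2, NS1 or NS3 and for Socs3 without any 1 library other than HR1, HS1, NR1 or NS2, leaving out 1 library at a time. Calls were lost with voom for Mmp3 and Socs3, with a pseudocount of 0.1 for Mmp3, without the level filter for Mmp3, Ccl6, Cxcl14, Cx3cl1, Stat3 and Socs3, with quantile scaling for Cxcl14, and with the replicate block for Cxcl14. With voom the log2 interaction was -2.02 for Mmp9, -2.02 for Mmp3, 4.31 for Ccl28.

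Of 16 tested neutrophil genes, 11 reached the level filter only through the normoxic injured kidneys, so that a lower value was largely set by the filter, and 9 of the 11 lower calls were among them. Of the other 5, 2 were called lower, Itgam and Lcn2, and none of the 16 was called higher. Itgam, the integrin CD11b, was at 4.24, 3.63 and 4.04 FPKM in normoxic and 1.40, 1.10 and 1.57 in preconditioned injured kidneys (-0.82 ± 0.13, adjusted p = 0.00213). With voom the interaction of Itgam was -0.25 and with a pseudocount of 0.1 it was -0.56, and it was called in neither. Mmp8, a collagenase stored by neutrophils and one of the genes let in by the normoxic injured kidneys, was at 1.95, 5.30 and 4.13 (NR) against 0.794, 0.0461 and 0.473 (HR) (-1.67 ± 0.35, adjusted p = 0.00636). The summed level of the 26 listed genes was 49.0 to 84.6 FPKM in normoxic sham, 1737 to 3367 in normoxic injured, 42.8 to 72.8 in preconditioned sham and 608 to 996 in preconditioned injured kidneys. Without Lcn2, which tubules also make, it was 179.9 to 358 in normoxic and 82.2 to 152 in preconditioned injured kidneys. The granule enzyme Mpo was at most 0.0116 FPKM and the surface marker Ly6g at most 0.639. The count of lower calls was 2 with voom, 6 when 0.1 was added before logs and 2 among genes reaching 5 FPKM in 3 libraries. The part of infiltrating cells in the other lower calls was not tested. Of 19 monocyte and macrophage genes, 3 were lower and 1 (Aif1) higher, a share of 21.1% against 23.9% of all genes tested. Of the lower calls, 1 (Chil3) reached the filter only through the normoxic injured kidneys, so that its lower value was largely set by the filter. The lower count was 5 without HR1, and 1 with voom, and the higher count was 0 without HR2, HR3, HS1, HS2, HS3, NR2, NS1 or NS3, and 3 without NR1. Chil3, a secreted lectin let in by the normoxic injured kidneys, was at 5.38 to 8.37 (NR) against 0.767 to 1.48 (HR) FPKM (-1.92 ± 0.21, adjusted p = 0.00039). The monocyte receptor Cd14, at 39.4, 135 and 80.4 (NR) against 23.8, 12.8 and 23.6 (HR), had an interaction of -2.13 ± 0.50 (SE, adjusted p = 0.0111). The call of Aif1 was lost without any 1 library other than HR1, NR1, NR3 or NS2, leaving out 1 library at a time. A call was lost with voom for Mmp8, Aif1 and Cd14, with a pseudocount of 0.1 for Aif1, without the level filter for Aif1, with quantile scaling for Aif1, and with the replicate block for Aif1. With voom the log2 interaction was -2.91 for Mmp8, 1.85 for Aif1, -2.94 for Chil3.

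Metal, redox and cell death genes were among the lower calls as well. In either direction, 47.1% of metallothionein and glucocorticoid genes and 40.0% of cell death genes were called. The shares were 29.2% for NRF2 genes and 21.1% for p53 targets, against 23.9% of all genes tested. Of 17 metallothioneins and glucocorticoid targets, 7 were lower and 1 higher, with a median of -1.29. The higher call, the glucocorticoid receptor gene Nr3c1, was lost (0 without HR1, HR2, HS1, HS2, HS3, NR2, NS2 or NS3). Mt1, a metal-binding metallothionein, was at 707, 1420.3 and 906 FPKM in normoxic and 257, 233 and 333 in preconditioned injured kidneys (-2.21 ± 0.29, adjusted p = 0.000813). Of 24 genes under the antioxidant factor NRF2, 6 were lower (1 of them past the filter only through the normoxic injured kidneys) and 1 higher. Srxn1, sulfiredoxin, was at 454, 529.5 and 503 FPKM in normoxic and 121, 102 and 148 in preconditioned injured kidneys, with sham values of 22.9 to 24.3 and 23.8 to 26.3. Its interaction was -2.07 ± 0.16 (SE, adjusted p = 7.56e-05). The lower NRF2 count was 11 without NR2, and the higher one (Me1) 0 without HS3, NS2 or NS3. Of 20 cell death genes, 7 were lower and 1 higher (the higher count 2 without NR1), and they act in both directions. Mlkl and Ripk3 execute necroptosis, while Bcl2l1, Mcl1 and Cflar protect from death. Mlkl was at 10.3, 6.12 and 7.29 FPKM in normoxic and 2.78, 2.04 and 1.99 in preconditioned injured kidneys (-1.63 ± 0.23, adjusted p = 0.00124), and Bcl2l1 at 109 to 152 (NR) against 56.2 to 80.4 (HR) (-0.99 ± 0.19, adjusted p = 0.00519). Cdkn1a, the cell cycle inhibitor p21, was at 130.1, 248 and 167 (NR) against 54.0, 33.6 and 72.1 (HR) (-1.85 ± 0.39, adjusted p = 0.00679). Of 19 p53 targets, 4 were lower, and 2 without HR1, HR2, HS1, HS2, NR2, NR3, NS1 or NS2. The higher count was 0, and 1 without HR3 or NR1.

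Targets of hypoxia-inducible factors were split. Of 29 tested members, 6 were called lower and 2 higher, with a median of -0.09. The share called was 27.6%, against 23.9% of all genes tested. The higher count was 1 without HS1 or NS1. Hk2, a hexokinase, was at 3.36, 4.87 and 4.87 FPKM in normoxic and 1.35, 1.42 and 1.13 in preconditioned injured kidneys (-1.27 ± 0.16, adjusted p = 0.000767). Adm, the vasodilator peptide adrenomedullin, was at 46.1, 35.4 and 38.2 (NR) against 11.2, 7.75 and 13.1 (HR) (-1.62 ± 0.23, adjusted p = 0.00112), and Slc2a1, the glucose transporter GLUT1, at 81.3, 139.9 and 102 (NR) against 56.6, 50.9 and 52.6 (HR) (-1.35 ± 0.21, adjusted p = 0.00166). Endothelial genes held 6 lower (35.3%, against 12.6% of all genes) and 0 higher calls of 17, the higher count being 1 without NR3. Their median interaction was -0.25, with 11 of 17 values below 0 and a highest value of 0.79. Nos3, the endothelial nitric oxide synthase, was at 12.0 to 15.4 FPKM in normoxic and 5.18 to 8.82 in preconditioned injured kidneys (-0.93 ± 0.21, adjusted p = 0.00937), against 2.24 to 2.48 in normoxic sham. Of 24 stromal genes, 4 were lower (16.7%, against 12.6% of all genes) and 0 higher (1 without NR1). As a list the stromal genes had a median interaction of -0.04, with 14 of 24 values below 0 and a highest value of 0.82. Their median injury effect was 0.55 in normoxic and 0.66 in preconditioned mice. Ccn2, a matrix growth factor, was at 238, 309 and 199.5 (NR) against 91.0, 45.5 and 61.0 (HR) (-1.58 ± 0.35, adjusted p = 0.00937), and the collagen chain Col4a1 had an interaction of -0.56 (adjusted p = 0.00747). None of the 12 podocyte genes was called by limma (3 lower and 0 higher at an unadjusted p under 0.05, and 1 and 0 with voom), apart from 1 lower without NR1 and 1 higher without NR1. With voom the log2 interaction was -2.28 for Hk2.

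The genes with the most positive interaction values included tubule enzymes and transporters whose loss upon injury was smaller after preconditioning. Keg1 (chr19:12695790-12719902), a kidney-expressed gene whose promoter is printed with that of Sprr2f, was at 1883, 1409.6 and 1566 FPKM in normoxic sham and 197, 66.9 and 98.2 in normoxic injured kidneys. In preconditioned mice it was at 1165, 997 and 1054 in sham and 752, 962 and 573 in injured kidneys, and its interaction was 3.35 ± 0.44 (SE, adjusted p = 0.000787). The injured groups were far apart and did not overlap. Gatm, the first enzyme of creatine synthesis, was at 14.3, 10.6 and 7.39 FPKM in normoxic and 60.5, 117 and 39.9 in preconditioned injured kidneys, against 359.8 to 368 in normoxic sham. Its injury effect was -5.003 ± 0.31 in normoxic and -2.65 ± 0.31 in preconditioned mice, so that a large loss remained, and its interaction was 2.35 ± 0.43 (SE, adjusted p = 0.00363). G6pc, the glucose 6-phosphatase that releases glucose, was at 9.63, 16.2 and 12.6 (NR) against 43.0, 75.1 and 81.4 (HR) FPKM (2.48 ± 0.30, adjusted p = 0.000634). Acmsd, which steers tryptophan breakdown away from NAD, was at 3.20, 2.14 and 1.37 (NR) against 16.8, 35.1 and 7.51 (HR) (2.36 ± 0.55, adjusted p = 0.011). Glyctk, glycerate kinase, was at 12.5, 2.92 and 5.67 FPKM in normoxic and 35.6, 37.9 and 35.9 in preconditioned injured kidneys (2.72 ± 0.44, adjusted p = 0.00205). Hykk, hydroxylysine kinase, was at 2.80, 2.11 and 2.62 (NR) against 13.7, 24.8 and 15.3 (HR) (2.53 ± 0.24, adjusted p = 0.000188). None of these 6 genes, chosen by their interaction values, overlapped between the injured groups, and over all genes tested 27.8% had every preconditioned injured kidney above every normoxic one.

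**Figure D3:**
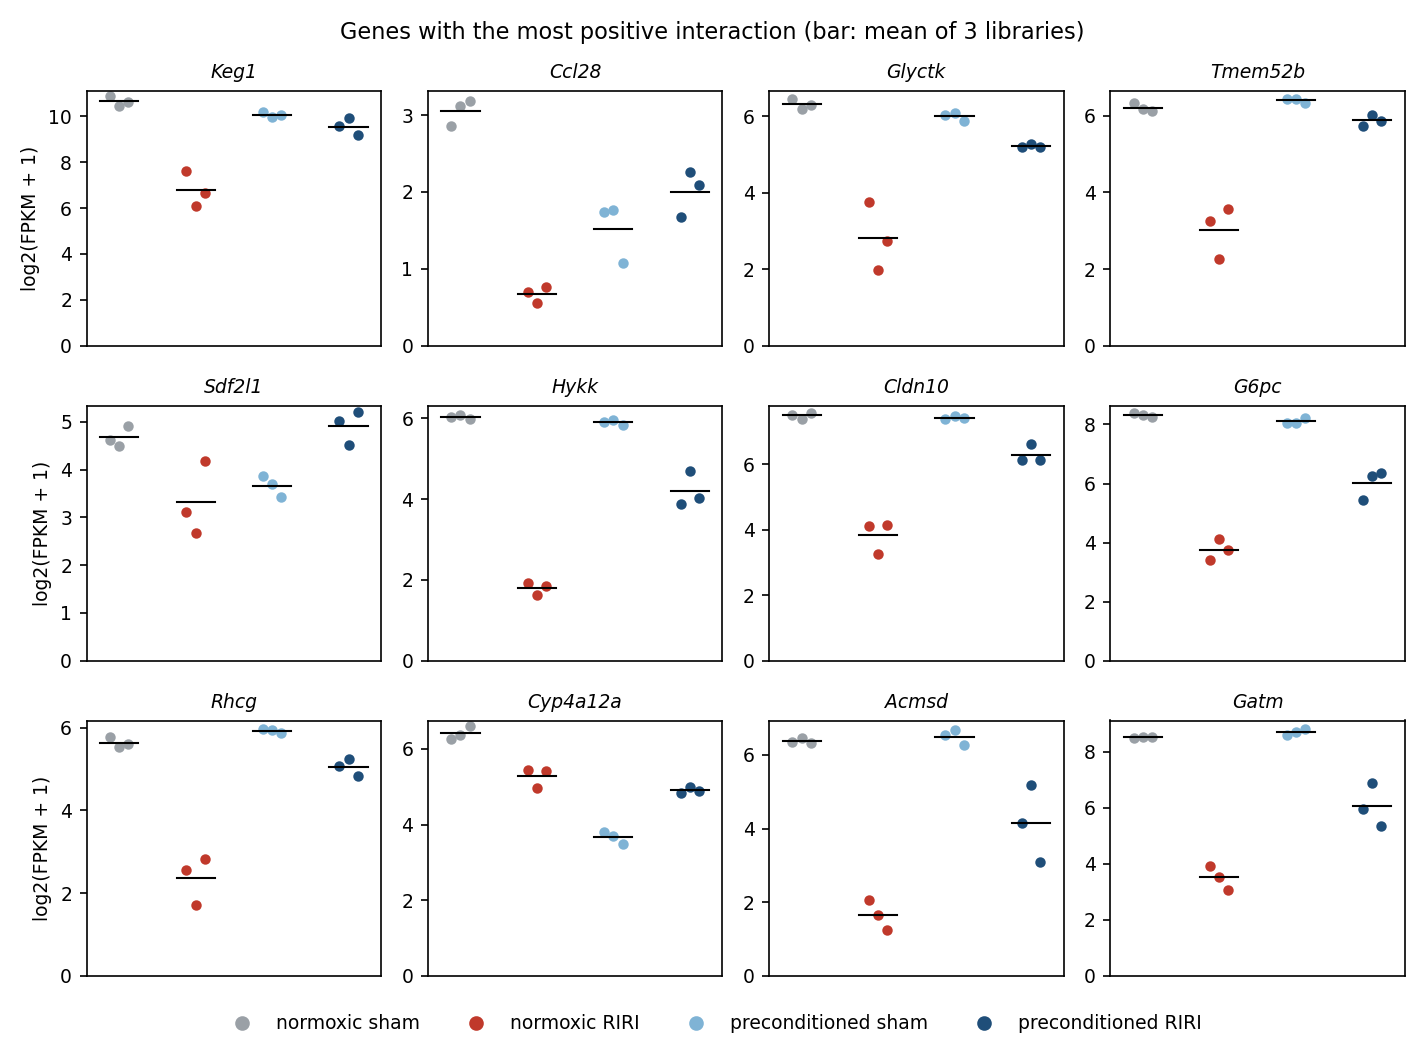
Level as log2(FPKM + 1) of the 12 genes with the most positive interaction values in the 12 kidneys, with a point for each kidney, coloured by group, and a bar at the mean of 3. In Keg1, Gatm and G6pc the 3 preconditioned injured kidneys lie between the normoxic injured kidneys and the sham kidneys.

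The smaller loss was seen along the nephron. Of 45 proximal tubule genes, 27 were called higher and 0 lower, with a median interaction of 0.67 and a median injury effect of -1.48 in normoxic and -0.84 in preconditioned mice. Aqp1, the water channel of the proximal tubule and thin limb, was at 75.3, 92.3 and 92.9 FPKM in normoxic and 266, 340.3 and 262 in preconditioned injured kidneys (1.61 ± 0.16, adjusted p = 0.000188). Slc6a20b, an amino acid transporter, was at 12.6 to 14.5 (NR) against 26.4 to 35.4 (HR) (1.17 ± 0.14, adjusted p = 0.000609). Slc13a1, the sodium-sulfate cotransporter, took another course. It was at 150.004, 146 and 148 FPKM in normoxic sham, 157, 112 and 139 in normoxic injured, 179, 177 and 192 in preconditioned sham and 533, 475 and 450.04 in preconditioned injured kidneys. Its level in the last group was above that in each of the other 9 kidneys, and its interaction was 1.55 ± 0.15 (SE, adjusted p = 0.000195).

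Of 18 thick ascending limb genes, 11 were higher and 0 lower, with a median of 1.05. The count was 10 to 11 with any 1 library left out. Slc12a1, the furosemide-sensitive NKCC2 cotransporter, was at 10.7, 10.3 and 16.7 FPKM in normoxic and 54.9, 89.6 and 54.3 in preconditioned injured kidneys, against 194 to 207 and 225 to 269 in the sham groups (2.01 ± 0.28, adjusted p = 0.000973). The chloride channel subunit Bsnd was at 2.45, 0.770 and 3.18 (NR) against 15.8, 17.7 and 14.6 (HR) (2.29 ± 0.34, adjusted p = 0.0014), and the paracellular claudin Cldn10 at 16.3, 8.64 and 16.7 (NR) against 68.5, 96.6 and 69.0 (HR) (2.51 ± 0.29, adjusted p = 0.000477). Tmem52b, a membrane protein of the distal nephron, was at 8.45, 3.75 and 10.9 (NR) against 52.5, 63.7 and 57.3 (HR) (2.66 ± 0.35, adjusted p = 0.000794). In these 4 genes, named for their adjusted p or their size, every preconditioned injured kidney was above every normoxic injured one, as in 27.8% of all genes tested.

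Distal segments held calls in both directions. Of 18 distal convoluted and connecting tubule genes, 8 were higher and 2 (Atp2b1 and Sgk1) lower, the lower count being 1 without HR2, HS1, HS2, HS3, NR2, NR3, NS1 or NS2, and 4 without NR1. Kl, the FGF23 co-receptor klotho, was at 30.1 to 30.3 FPKM in normoxic and 44.8 to 60.7 in preconditioned injured kidneys (0.82 ± 0.13, adjusted p = 0.00178). Trpv5, the calcium channel of this segment, was at 3.06, 4.22 and 3.35 (NR) against 8.31, 8.78 and 7.36 (HR) (0.94 ± 0.17, adjusted p = 0.0034), and the latter group stood above the sham range of 3.30 to 4.70 and 3.92 to 4.24. Of 16 principal cell genes, 5 were higher (31.2%, against 11.3% of all genes). Hsd11b2, which shields the mineralocorticoid receptor from cortisol-like steroids, was at 9.51, 9.97 and 10.9 (NR) against 51.2, 77.9 and 50.8 (HR) (2.09 ± 0.20, adjusted p = 0.000188), and the vasopressin receptor Avpr2 at 1.62 to 3.08 (NR) against 10.2 to 16.5 (HR) (1.46 ± 0.25, adjusted p = 0.00263). Of 18 intercalated cell genes, 10 were higher and 1 lower. The ammonia channel Rhcg was at 4.88, 2.29 and 6.06 FPKM in normoxic and 32.5, 36.6 and 27.3 in preconditioned injured kidneys (2.38 ± 0.31, adjusted p = 0.000759), and the proton pump subunit Atp6v1b1 at 4.68 to 8.21 (NR) against 27.0 to 36.4 (HR) (1.70 ± 0.23, adjusted p = 0.000866). The exception was Car2, a cytosolic carbonic anhydrase. It was at 270.1, 262 and 270.4 in normoxic and 196, 209 and 159.8 in preconditioned injured kidneys, against 185 to 196 and 225 to 259 in sham (-0.89 ± 0.13, adjusted p = 0.00147).

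Among metabolic genes, 8 of 12 gluconeogenesis and fructose genes were called higher (66.7%, against 11.3% of all genes) and 0 lower. Slc37a4, the glucose 6-phosphate carrier, was at 21.8, 19.2 and 20.2 FPKM in normoxic and 57.0, 49.4 and 58.7 in preconditioned injured kidneys (1.45 ± 0.12, adjusted p = 7.56e-05). Pck1, the entry enzyme of the pathway, was at 179, 276 and 134 (NR) against 336, 299.9 and 609 (HR) (1.61 ± 0.41, adjusted p = 0.0166). The count was 4 without HS1, NS1 or NS2, and 5 without HR2 or HS3. Of 33 fatty acid oxidation genes, 9 were higher and 0 lower. That share of 27.3% stands against 11.3% of all genes called higher and 23.9% called in either direction. Etfb, an electron carrier of this pathway, was at 171 to 199 FPKM in normoxic and 270.0 to 299 in preconditioned injured kidneys (0.59 ± 0.10, adjusted p = 0.00277). Of 22 citric acid cycle genes, 5 were higher and 0 lower (22.7%, against the same 11.3% and 23.9%). The higher count was 2 without HS1, and 3 without HR2, HS3, NS2 or NS3. Of 36 nuclear-encoded respiratory chain genes, 5 were higher, a share near that of all genes, and the count was 1 to 9 over the 12 fits that left out 1 library, each of which moved it by over 1.5 times. Of the 13 genes of the mitochondrial genome, limma called none (0 lower and 3 higher at an unadjusted p under 0.05, and 0 and 0 with voom), and 1 higher without HS1, NR2 or NS2. Of the 55 cytosolic ribosomal protein genes it called none either (0 lower and 0 higher at an unadjusted p under 0.05, and 0 and 0 with voom). For 50 of the latter, the 95% interval lay within 0.5 of 0 on the log2 scale. A call was lost without the level filter for Pck1.

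Genes of the endoplasmic reticulum (ER) stress response divided. Of 29 tested members, 14 were called higher and 5 lower. The 14 higher calls all fell among 15 listed genes of ER folding and quality control, which held chaperones and folding enzymes but also Herpud1 and Manf. The 5 lower calls all fell among the 14 sensors, transcription factors and integrated stress response genes. This division of the list was made after the values were seen. The 15 folding and quality control genes had a median injury effect of -0.75 in normoxic and 0.33 in preconditioned mice. Hspa5, the master chaperone BiP, had an injury effect of -0.44 ± 0.21 in normoxic and 1.01 ± 0.21 in preconditioned mice. For Hsp90b1, the chaperone GRP94, it was -1.04 ± 0.19 in normoxic and 0.33 ± 0.19 in preconditioned mice, and for Manf, a secreted stress-induced factor, -0.41 ± 0.24 in normoxic and 1.09 ± 0.24 in preconditioned mice. Sdf2l1, a cofactor of BiP, was at 23.6, 21.5 and 29.0 FPKM in normoxic sham, 7.68, 5.39 and 17.0 in normoxic injured, 13.6, 11.9 and 9.73 in preconditioned sham and 31.2, 21.8 and 36.1 in preconditioned injured kidneys. Its interaction was 2.60 ± 0.44 (SE, adjusted p = 0.00242). The count of higher calls was 14 with each single library left out. Among the stress response genes the median injury effect was 2.07 in normoxic and 1.37 in preconditioned mice. Ppp1r15a, a phosphatase subunit that ends the response, was at 28.7, 58.1 and 44.4 FPKM in normoxic and 10.9, 11.8 and 17.2 in preconditioned injured kidneys (-1.79 ± 0.35, adjusted p = 0.00481). The transcription factor Atf4 had an injury effect of 2.22 ± 0.14 in normoxic and 1.42 ± 0.14 in preconditioned mice. Sham levels of the folding and quality control genes were part of this pattern: their median difference between preconditioned and normoxic sham kidneys was -0.48, with 0 of 15 called, and 0.56 between the injured groups. The lower count was 3 without HS2, HS3 or NS1, and 8 without HR3.

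**Figure D4:**
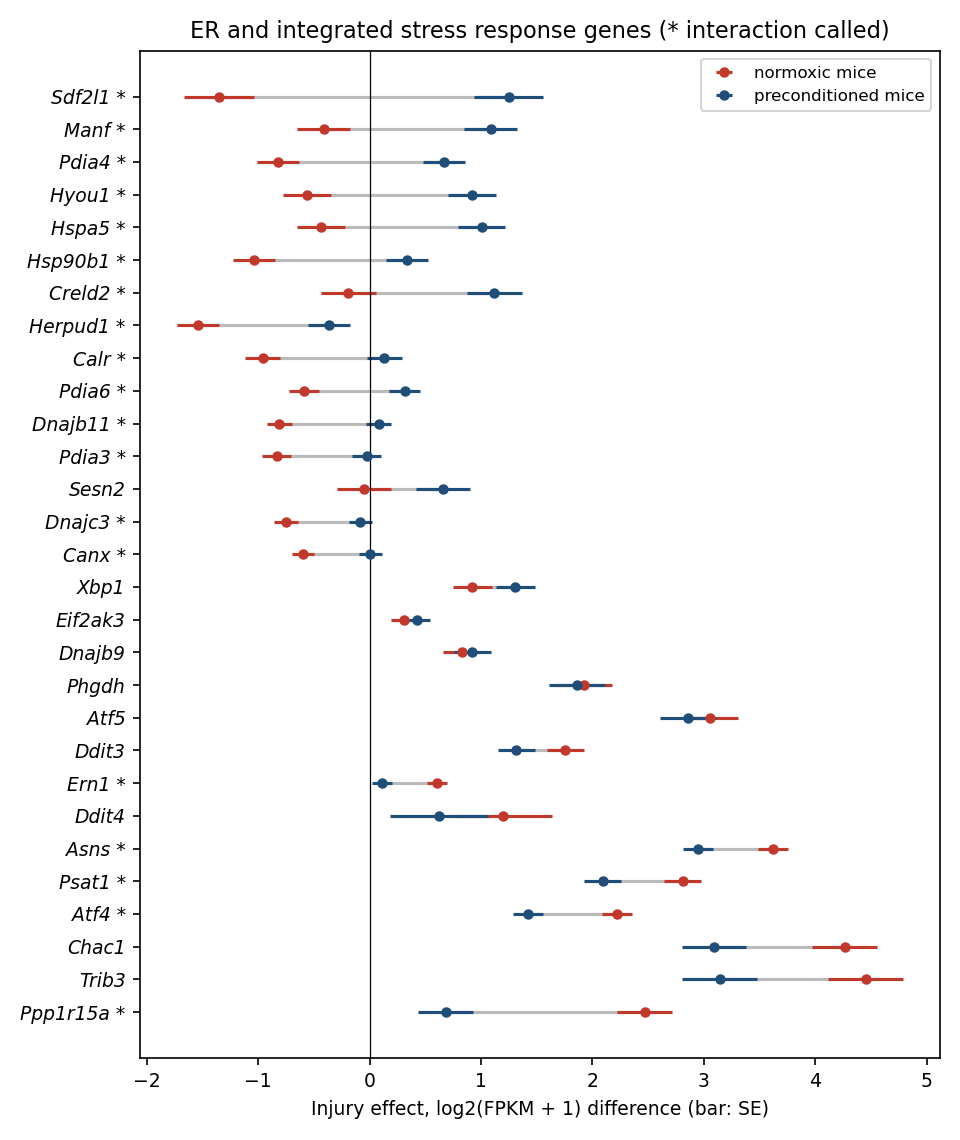
Injury effect (log2(FPKM + 1) difference with SE bars, 3 against 3 libraries) of the 29 ER stress genes in normoxic (red) and in preconditioned mice (blue), joined by a grey line, with a star at each gene called. Most chaperones lie below 0 in normoxic and near or above 0 in preconditioned mice, while most stress response genes lie above 0 in both arms and lower in preconditioned mice.

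Heat shock chaperones of the cytosol held 3 higher (18.8%, against 11.3% of all genes) and 0 lower calls of 16. The higher count was 5 without NR3, and the lower count 1 without HS2. For Hsp90ab1, a constitutive HSP90, levels were 722, 691 and 775 FPKM in normoxic and 697, 643 and 694 in preconditioned injured kidneys, which overlapped. Sham levels were 617, 612 and 778 (NS) against 437, 405 and 404 (HS), a difference of -0.68 ± 0.09 (SE, adjusted p = 0.00772). Its interaction of 0.57 ± 0.13 (SE, adjusted p = 0.0104) stands beside that lower sham level after preconditioning. Of 31 proteasome subunits, 7 were lower (22.6%, against 12.6% of all genes), and 3 without HS1 or NS1.

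A few called genes departed from the pattern of a smaller response. Serpina10, the protein Z-dependent protease inhibitor, rose more after preconditioning: it was at 4.71, 3.56 and 5.18 FPKM in normoxic and 20.0, 33.2 and 13.4 in preconditioned injured kidneys (2.04 ± 0.34, adjusted p = 0.00218). C3, the central complement protein, was at 13.6, 9.07 and 16.9 (NR) against 81.5, 36.1 and 87.9 (HR) FPKM, and its sham levels were 1.61 to 2.31 and 3.90 to 5.08 (1.43 ± 0.42, adjusted p = 0.029). Neither was called with voom (adjusted p = 0.144 and 0.108). Nuak2, a kinase related to AMPK, was at 40.4, 38.5 and 24.6 in normoxic and 90.8, 54.2 and 77.2 in preconditioned injured kidneys (1.38 ± 0.27, adjusted p = 0.00506), where it lay above all other groups. Nat8f5, an N-acetyltransferase family member with close paralogs, was at 39.0 to 69.1 (NR) against 41.6 to 77.7 (HR) FPKM, which overlapped. Its sham levels were 32.7 to 37.5 (NS) and 9.25 to 17.3 (HS), a difference of -1.29 ± 0.27 (SE, adjusted p = 0.0667), and its interaction was 1.47 (adjusted p = 0.0171). Glul, glutamine synthetase, fell in preconditioned mice: it was at 189.7, 173 and 173 FPKM in normoxic sham, 133, 241 and 141 in normoxic injured, 217, 221 and 259 in preconditioned sham and 82.8, 98.8 and 81.4 in preconditioned injured kidneys (-1.29 ± 0.26, adjusted p = 0.00571). The VEGF receptor Kdr was at 9.16 to 11.2 (NR) against 7.41 to 8.36 (HR) (-0.45 ± 0.12, adjusted p = 0.0202). Wfdc16 had an interaction of -0.91 (adjusted p = 0.0467). The call was lost for C3 without any 1 library other than HR2, HS2, NR1, NR3 or NS1, for Kdr without NS3 and for Wfdc16 without any 1 library other than HS1 or NS1, leaving out 1 library at a time. A call was lost with voom for Wfdc16, with a pseudocount of 0.1 for C3 and Wfdc16, with a pseudocount of 5 for Wfdc16, without the level filter for C3, Nat8f5 and Wfdc16, with median-ratio scaling for Wfdc16, with quantile scaling for Wfdc16, with library weights for Wfdc16, and with the replicate block for Wfdc16.

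In a further few genes preconditioning had already changed the sham kidney. Cyp4a12a (chr4:115299046-115332815), an androgen-dependent fatty acid hydroxylase that makes the vasoconstrictor 20-HETE, was at 75.6, 82.0 and 95.9 FPKM in normoxic sham, 42.3, 30.2 and 42.0 in normoxic injured, 12.9, 12.1 and 10.2 in preconditioned sham and 27.6, 31.0 and 28.6 in preconditioned injured kidneys. Its sham difference was -2.75 ± 0.14 (SE, adjusted p = 2.28e-06) and its interaction 2.38 ± 0.19 (SE, adjusted p = 7.56e-05). Injury lowered it in normoxic mice and raised it in preconditioned mice, and the injured groups overlapped. Cyp4a12a has a near-identical neighbour, Cyp4a12b, with which reads may be shared. Ccl28, a mucosal chemokine, was at 6.26, 7.65 and 8.12 FPKM in normoxic sham, 0.630, 0.476 and 0.700 in normoxic injured, 2.33, 2.39 and 1.11 in preconditioned sham and 2.19, 3.78 and 3.25 in preconditioned injured kidneys. Its sham difference was -1.53 ± 0.19 (adjusted p = 0.0034) and its interaction 2.86 ± 0.27 (SE, adjusted p = 0.000188). Srd5a2, the steroid 5-alpha reductase, and Lipo3, a lipase, had sham differences of -1.69 ± 0.21 and -1.55 ± 0.19 and interactions of 2.00 ± 0.29 (adjusted p = 0.00135) and 1.52 ± 0.27 (0.00283). In Srd5a2 the injured groups overlapped (0.323 to 1.37 (NR) against 1.06 to 1.66 (HR) FPKM) while the sham groups did not. Of 12 sex-biased kidney genes, 3 were higher (1 without HR2, NR3, NS1 or NS3, and 5 without HR3), and their summed level was 44253 to 49847 FPKM in normoxic sham and 27360.1 to 32961 in preconditioned sham kidneys. The part of sex or hormones in these values was not tested. Rasd1, a small GTPase induced by glucocorticoids, had opposite signs of another kind. It was at 10.6, 28.1 and 14.6 FPKM in normoxic and 4.45, 2.49 and 4.34 in preconditioned injured kidneys, while the sham values were 0.828, 1.85 and 2.61 (NS) against 2.89, 11.2 and 1.33 (HS), with HS2 apart from the rest (-2.75 ± 0.73, adjusted p = 0.0199). The call of Rasd1 was lost without NS1, leaving out 1 library at a time. Calls also ended without the level filter for Rasd1.

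**Figure D5:**
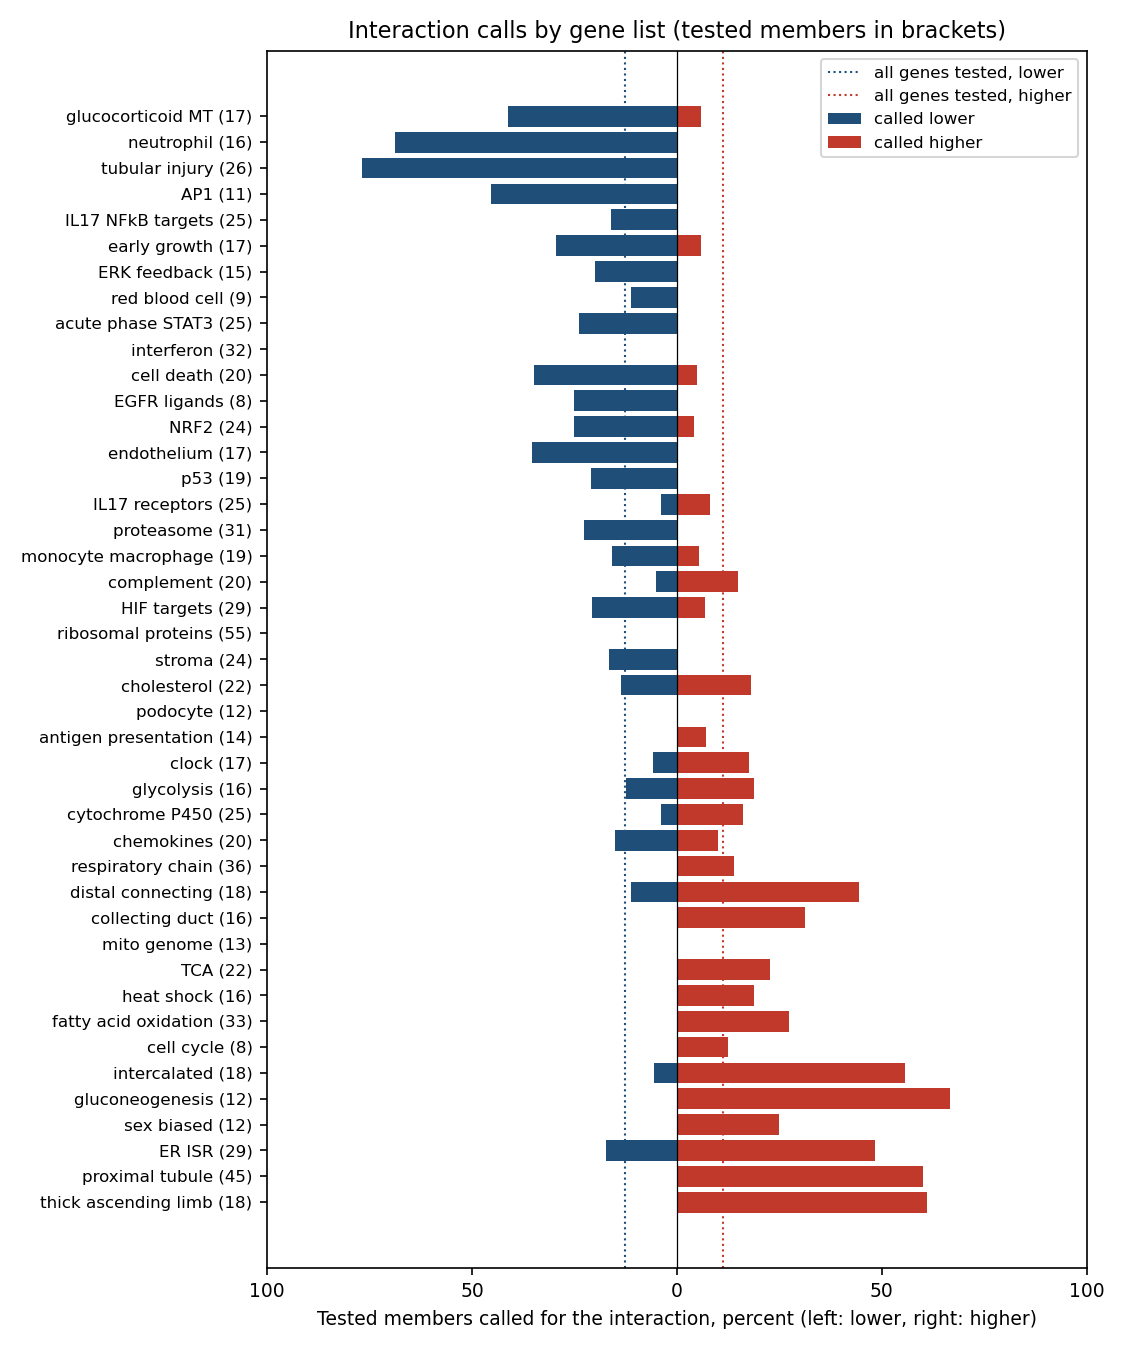
Share of the tested members of each gene list called lower (left) or higher (right) for the interaction, in percent, with the number of tested members in brackets and dotted lines at the shares over all genes (12.6% and 11.3%). Tubular injury and neutrophil genes extend farthest to the left, the latter with 9 of 11 calls in genes past the filter only through normoxic injured kidneys, and gluconeogenesis, thick ascending limb and proximal tubule genes farthest to the right.

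Other lists held calls in both directions or none. Of 32 interferon-stimulated genes, limma called none (2 lower and 0 higher at an unadjusted p under 0.05, and 0 and 0 with voom), and 1 without HR2, 2 without HS2, and 7 without HR1 called lower, and 1 called higher without HS3. Their median interaction was -0.36, with a median difference of 0.81 between preconditioned and normoxic sham kidneys, where none was called by limma either. Of 22 cholesterol genes, 4 were higher and 3 lower (31.8% called, against 23.9% of all genes), the lower count being 1 without HS1, HS2, NR3, NS1 or NS3, and 6 without HR2. Mvd, an enzyme of the mevalonate route, was at 10.5, 6.48 and 6.43 FPKM in normoxic and 21.6, 29.2 and 18.8 in preconditioned injured kidneys (1.56 ± 0.26, adjusted p = 0.00234), while Msmo1, a later enzyme, was at 29.0, 34.5 and 37.4 (NR) against 21.3, 24.9 and 15.9 (HR) (-1.27 ± 0.22, adjusted p = 0.00286). Of 17 clock genes, 3 were higher and 1 (Per1) lower, a share of 23.5% against 23.9% of all genes tested. The lower clock count was 0 without HR1, HR2, HS1, HS2, HS3, NR2 or NS2, and 2 without NR1. Hlf, a clock output factor, was at 0.942, 0.987 and 0.718 (NR) against 4.77, 6.74 and 4.996 (HR) (2.17 ± 0.24, adjusted p = 0.00041), while Per2 (1.21, adjusted p = 0.00355) and Per1 (-1.29, 0.0307), both repressors of the clock, differed in sign. The hour of tissue collection is not given in the labels. The call of Per1 was lost without any 1 library other than HR3, NR1, NR3 or NS3, leaving out 1 library at a time. Calls were lost without the level filter for Per1. With voom the log2 interaction was 1.91 for Per2.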

How the data were processed

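RNA sequencing libraries of 12 mouse kidneys, 3 in each group, were analysed. Per the labels, RNA was extracted with TRIzol and sequenced on a DNBSEQ-T7. The authors deposited 1 table of FPKM per gene symbol, and the submitters' processing notes name mm10, HTSeq and DESeq2. The aligner is not given in the sources used here. Each column matched a sample by its library name, and no 2 libraries shared values.

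Genes with at least 1 FPKM in at least 3 libraries (12357) were fitted on log2(FPKM + 1) with limma 3.58.1 in R 4.3.3, as 4 group means with a mean-variance trend, and p was adjusted by Benjamini-Hochberg over all of them. On this scale a fold change of a gene of low FPKM is understated, while the interaction, a difference of such changes, can come out smaller or larger than with voom. Calls were made at an adjusted p under 0.05. The fit was tested on simulated data. Whole reads were recovered from the FPKM steps for 25551 of 25553 genes (tolerance 0.01 reads), and were used for depth and for voom, which called 1413 genes lower and 1521 higher.

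The gene lists and the interaction were chosen with earlier results of these data known. Named genes are the 12 called genes with the most negative and the 12 with the most positive value (a group mean of at least 5 FPKM), the 4 largest in each pattern of response, up to 4 called members of a list by adjusted p, the genes of the title, and 8 injury genes not called. The ER genes Hspa5, Hsp90b1, Manf and Atf4, and members named only to spell out a small count, were chosen after their values were seen. Results for 3 genes that the rule or the marker lists hold are not reported here. Gene positions and promoters come from RefSeq (GRCm38.p6), which had a position for 12169 of the tested genes. Alternatives covered the pseudocount, filter, scaling, trend, weights, replicate block, a minimum size, voom and leaving out each library.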

Additional observations from a re-analysis of the deposited data

Results flagged for a closer look

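The effect of injury differed between normoxic and preconditioned mice in 1560 genes called lower and 1393 called higher, by limma's test of the difference itself. Of the 12 genes with the most negative log2 interaction values, 11 are given: Sprr2f (-3.77), Pdk4 (-2.97), Rasd1 (-2.75), Vgf (-2.71), Fosl1 (-2.63), Akap12 (-2.57), Krt20 (-2.53), Plin2 (-2.50), Hmga1 (-2.42), Dusp5 (-2.36) and Sphk1 (-2.34). The 12 with the most positive were Keg1 (3.35), Ccl28 (2.86), Glyctk (2.72), Tmem52b (2.66), Sdf2l1 (2.60), Hykk (2.53), Cldn10 (2.51), G6pc (2.48), Rhcg (2.38), Cyp4a12a (2.38), Acmsd (2.36) and Gatm (2.35). In Cyp4a12a, Ccl28 and Sdf2l1 the fitted injury effect was below 0 in normoxic and above 0 in preconditioned mice, and in Rasd1 it was 2.71 and -0.04.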

How the results depend on the processing

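With single libraries left out, lower calls ranged from 1077 to 1776 and higher calls from 978 to 1793. Requiring a log2 size over 1 by limma treat left 2 lower and 4 higher calls. Counts were within 1.5 times the reported ones with pseudocounts of 0.1 (1482 lower, 1460 higher) and 5 (1625, 1286), no filter (1302, 1001), a 5 FPKM filter (1337, 1196), median-ratio (1493, 1514) and quantile scaling (1406, 1521), a square-root scale (1619, 1248), no trend (1545, 1383), library weights (1503, 1414) and voom (1413, 1521). The replicate numbers did not pair the libraries: over 18 same-numbered pairs, deviations from group means correlated from -0.248 to 0.165, and 5 of 12 libraries correlated best with their own number. A fit with the replicate number as a block gave 1426 lower and 1274 higher calls. Of the 155 called named genes, 94 were called under each of the 22 settings in which they were tested. The other 61 lost their call in at least 1 (40 with no filter, 23 with voom, up to 29 with 1 library left out), and none changed sign. Genes under the 5 FPKM filter, such as Mmp9 and Hk2, were not tested there. The square-root scale and the minimum size were not among the 22. Of lower calls with both sham means under 1 FPKM, 78 of 177 were also called by voom, against 1261 of the other 1383. Counts of list members that moved by over 1.5 times were, with voom, 1 lower in acute phase and STAT3, 1 lower in monocyte and macrophage, 0 higher in monocyte and macrophage, 2 higher in cell death, 1 higher in endothelium, 5 higher in clock. They were, with a pseudocount of 0.1, 1 higher in IL-17 receptors and adaptors, 3 lower in acute phase and STAT3, 2 lower in interferon, 0 higher in monocyte and macrophage, 2 lower in p53. They were, with a pseudocount of 5, 0 higher in early growth factors, 6 lower in ERK feedback, 7 lower in IL-17 and NF-kB targets. They were, without the level filter, 0 higher in early growth factors, 2 lower in IL-17 receptors and adaptors, 0 higher in IL-17 receptors and adaptors, 0 lower in chemokines, 1 higher in chemokines, 2 lower in acute phase and STAT3, 0 higher in monocyte and macrophage, 4 lower in metallothioneins and glucocorticoid targets, 0 higher in metallothioneins and glucocorticoid targets, 2 lower in p53, 3 lower in ER stress, 1 higher in HIF targets, 3 higher in gluconeogenesis, 2 higher in respiratory chain, 1 lower in distal and connecting tubule, 6 higher in intercalated cells, 2 higher in cholesterol, 0 lower in clock, 1 higher in sex-biased. They were, with quantile scaling, 0 higher in monocyte and macrophage, 2 lower in p53, 1 higher in p53, 1 lower in podocyte, 1 higher in endothelium. They were, with library weights, 7 lower in IL-17 and NF-kB targets, 2 lower in p53, 1 higher in endothelium. They were, with no trend, 2 higher in cell death, 3 higher in respiratory chain, 1 lower in podocyte. They were, with the replicate block, 0 higher in early growth factors, 1 lower in chemokines, 1 lower in interferon, 0 higher in monocyte and macrophage, 0 higher in metallothioneins and glucocorticoid targets, 1 higher in respiratory chain, 5 higher in clock.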
